A study of Rattus norvegicus with 24 samples.

Results

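Among the genes measured in the rat left ventricle, 37 stood higher at 1 day and at 3 days after a high thoracic spinal cord transection and were back near the sham level at 12 weeks. The 37 genes were selected by their values in these libraries. The deposited counts are named as those of protein-coding genes. They were scaled to CPM (a gene's share of its library's total in these counts, times 1000000). Genes with a mean of at least 2 CPM over the 24 libraries were considered. A gene was taken when its mean log2(CPM + 0.5) exceeded the sham mean by at least 0.7 at both acute times and differed from it by less than 0.3 at 12 weeks. The table holds 23098 gene IDs, of which 11566 reached the CPM minimum, and 37 of these met all bounds. The higher level at 1 and 3 days and the return at 12 weeks are therefore the choice itself and are described below without a test.

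The groups were 6 sham libraries (the dura was opened at the high thoracic level and the cord left intact, tissue taken at 7 days), and 6 libraries each from 1 day, 3 days and 12 weeks after complete transection (spinal cord injury, SCI). All were male Wistar rats, and the tissue was the frozen free wall of the left ventricle at mid-ventricular level. No label says that each library came from a separate rat, so the spread between libraries may be partly technical. Sham tissue was taken at 1 time only, and time after surgery differs between sham and every SCI group, so the injury and the time since surgery cannot be told apart.

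The heart receives sympathetic nerves whose central drive runs down the spinal cord to the upper thoracic segments, and a complete transection above them cuts that drive while the vagal supply stays intact. How much of that drive the high thoracic transection of this series removed is not shown by the counts. In the first days after a spinal cord injury the heart is also exposed to the circulating products of surgery and tissue damage, such as stress hormones and cytokines. Such signals can change transcription in the cells of the heart, and leukocytes can enter the tissue in the same days.

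The deposited table gives Ensembl gene IDs without names, and none of its IDs could be matched to a symbol in the gene table used here. What the 37 genes encode is therefore not stated. Each is called by its place in the order of its mean acute difference, from member 1 (the largest) to member 37. Member 1 is ENSRNOG00000013003 and member 2 is ENSRNOG00000014409. Markers of cell types could not be looked up for the same reason, so the labelled tissue was not checked against them. In bulk tissue, more cells of a type and more RNA per cell cannot be told apart.

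Library depth, taken as the total of the deposited protein-coding counts, ran from 15002476 to 70340174. The lowest total was in a 12 week library and the next lowest, 16756399, in a 3 day library. Every member was detected in every library, with at least 10 counts. By the labels, library numbers 57 to 68 belong to sham and 3 day libraries, and numbers 77 to 88 to those from 1 day and 12 weeks. No label says that these runs of numbers mark rounds of processing. Each group also has its own stretch: 57 to 62 at 3 days, 63 to 68 in sham, 77 to 82 at 1 day and 83 to 88 at 12 weeks. The differences of 1 day and of 12 weeks from sham cross these runs, so that for the 1 day rise and the return at 12 weeks the group and the run cannot be told apart. The rise at 3 days over sham and the gap between 1 day and 12 weeks lie within a run, but still compare separate stretches of it. Across the members the latter gap had a median of 1.00 on the log2 scale and ran from 0.46 to 1.81, with a positive sign that the bounds fix in advance.

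The median difference from sham over the 37 members was 1.04 at 1 day and 0.84 at 3 days on the log2(CPM + 0.5) scale, or 2.05-fold and 1.79-fold, and 0.05 at 12 weeks. Over all 11566 genes considered, the medians were 0.01, -0.0041 and 0.02. At 1 day the members' differences ran from 0.72 to 2.06, and 20 of them were 1 or more. At 3 days they ran from 0.72 to 2.01, and 13 were 1 or more. Of all genes considered, 2.65% reached the bound of 0.7 at 1 day, 1.66% at 3 days and 1.2% at both times.

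The 37 members made up 26.6% of the 139 genes that met the acute bounds at both times. Another 89 of these genes were still 0.3 or more above sham at 12 weeks, with a median of 0.74, and 13 were 0.3 or more below it, with a median of -0.46. The acute differences of the 89 genes that stayed higher had medians of 1.04 at 1 day and 0.93 at 3 days, against 1.04 and 0.84 for the members. A value within 0.3 of sham at 12 weeks was common, being held by 77.8% of all genes considered. At 12 weeks 25 of the 37 members lay above the sham mean and 12 below it, and 54.1% of all genes considered lay above. The plot of acute against 12 week differences shows that no gap separates the members from the other raised genes.

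**Figure D1:**
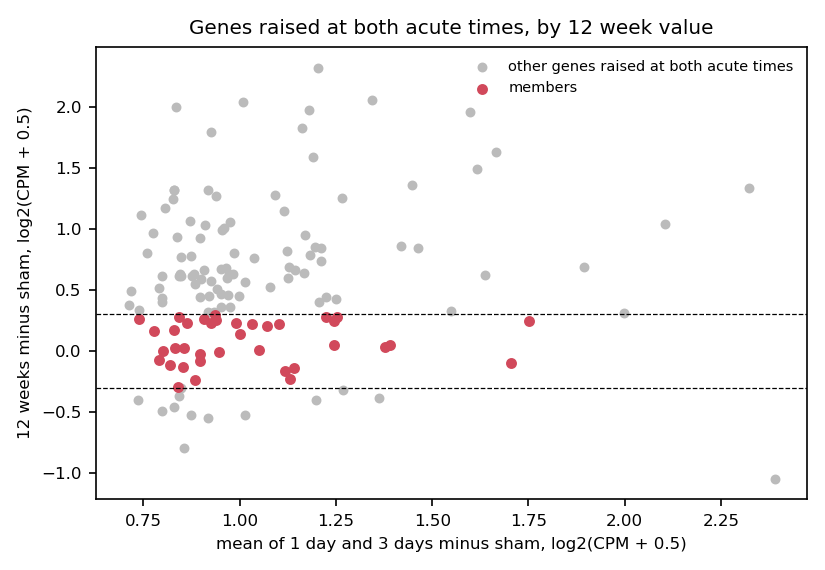
Each point is 1 of the 139 genes raised at both acute times, by its mean acute difference (x axis) and its 12 week difference (y axis), both from sham in log2(CPM + 0.5). The 37 members lie between the dashed bounds of -0.3 and 0.3, with 89 genes above and 13 below.

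The bounds cut through a continuous range of values. The smaller of a gene's acute differences was 0.716, 0.719 and 0.732 for the members nearest to the bound, and 0.692, 0.683 and 0.680 for the nearest genes outside it. The 12 week differences nearest to the bound were -0.296, 0.291 and 0.282 inside, and -0.304, 0.312 and -0.318 outside. The lowest mean levels were 2.00, 2.12 and 2.42 CPM among the members, against 1.87, 1.77 and 1.75 CPM for the nearest genes that met the other bounds. These means include the 12 acute libraries, so a gene under 2 CPM in sham and at 12 weeks could reach the minimum through its acute values. Member 10, for example, had means of 1.09 CPM in sham and 0.89 CPM at 12 weeks.

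The level of the members as a group was read in each library as the mean over the 37 members of log2(CPM + 0.5) minus the sham mean. It was 1.09 ± 0.119 at 1 day, 0.97 ± 0.225 at 3 days and 0.07 ± 0.279 at 12 weeks (SD, n = 6), and the sham libraries lay between -0.12 and 0.07. The 12 acute libraries, from 0.74 to 1.20, did not overlap with the sham or the 12 week libraries. The members were selected by these same libraries, which largely fixes this separation in advance, so nothing is read from it. At 3 days the libraries fell into a lower trio, at 0.74, 0.75 and 0.80, and an upper trio, at 1.16, 1.17 and 1.19. Depths were 30017444 to 48966088 counts in the lower trio and 16756399 to 32048813 in the upper one. The share of counts taken by the 10 most abundant genes was 33.2 to 40.1% in the lower trio and 30.9 to 34.6% in the upper one. The part of these values in the split was not tested.

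**Figure D2:**
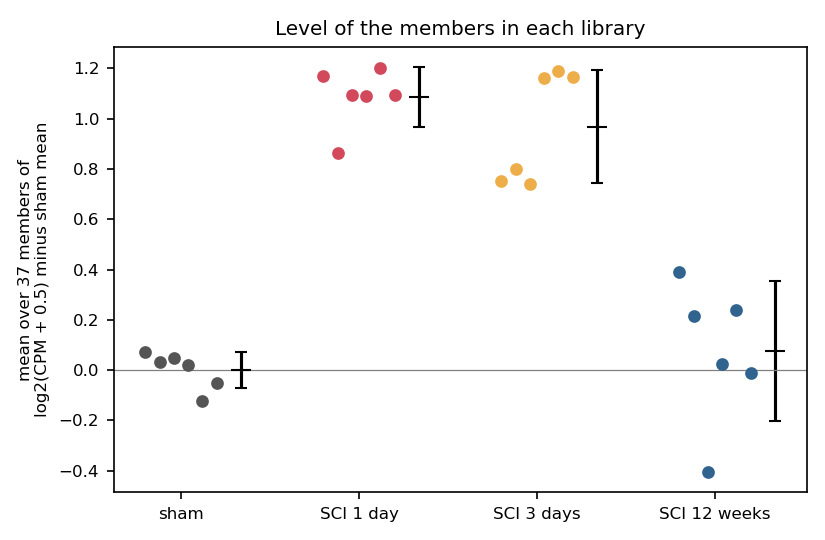
Each point is 1 library, placed by group (x axis) and by the mean over the 37 members of log2(CPM + 0.5) minus the sham mean (y axis), with the group mean and SD as a bar beside it. The acute libraries lie at 0.74 or higher, while the 12 week libraries spread from -0.41 to 0.39.

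At 12 weeks the bounds hold the mean of each member near sham, but single libraries strayed further. The lowest 12 week library, replicate 3, stood at -0.41 and had 24 of the 37 members below every sham library. The highest, replicate 1, stood at 0.39 and had 23 members above every sham library. This is the shallowest library of the series. Replicate 3, with 33248851 counts, is not shallow. Within the 12 week group 17 members had their highest value in replicate 1 and 23 had their lowest in replicate 3. Such counts were not taken over all genes considered, so they are not read as a trait of the members. The median SD of a member over the 6 libraries of a group was 0.228 in sham, 0.263 at 1 day, 0.368 at 3 days and 0.463 at 12 weeks, on the log2 scale. Over the 10300 genes with mean levels in the members' range these medians were 0.129, 0.138, 0.190 and 0.211. The 89 genes raised at both acute times that stayed higher at 12 weeks had medians of 0.266, 0.283, 0.360 and 0.463, so a spread of this size was not particular to the members. A larger SD at 12 weeks than in sham was seen in 31 of the 37 members and in 80.5% of the 10300 genes in the members' range. The median correlation over the 666 pairs of members was 0.395 within the 12 week libraries, against 0.0575 in sham, 0.0655 at 1 day and 0.255 at 3 days. Each of these correlations rests on 6 libraries that the pairs share, and is given as a description. No such value was computed for other genes, so it is not read as particular to the members.

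**Figure D3:**
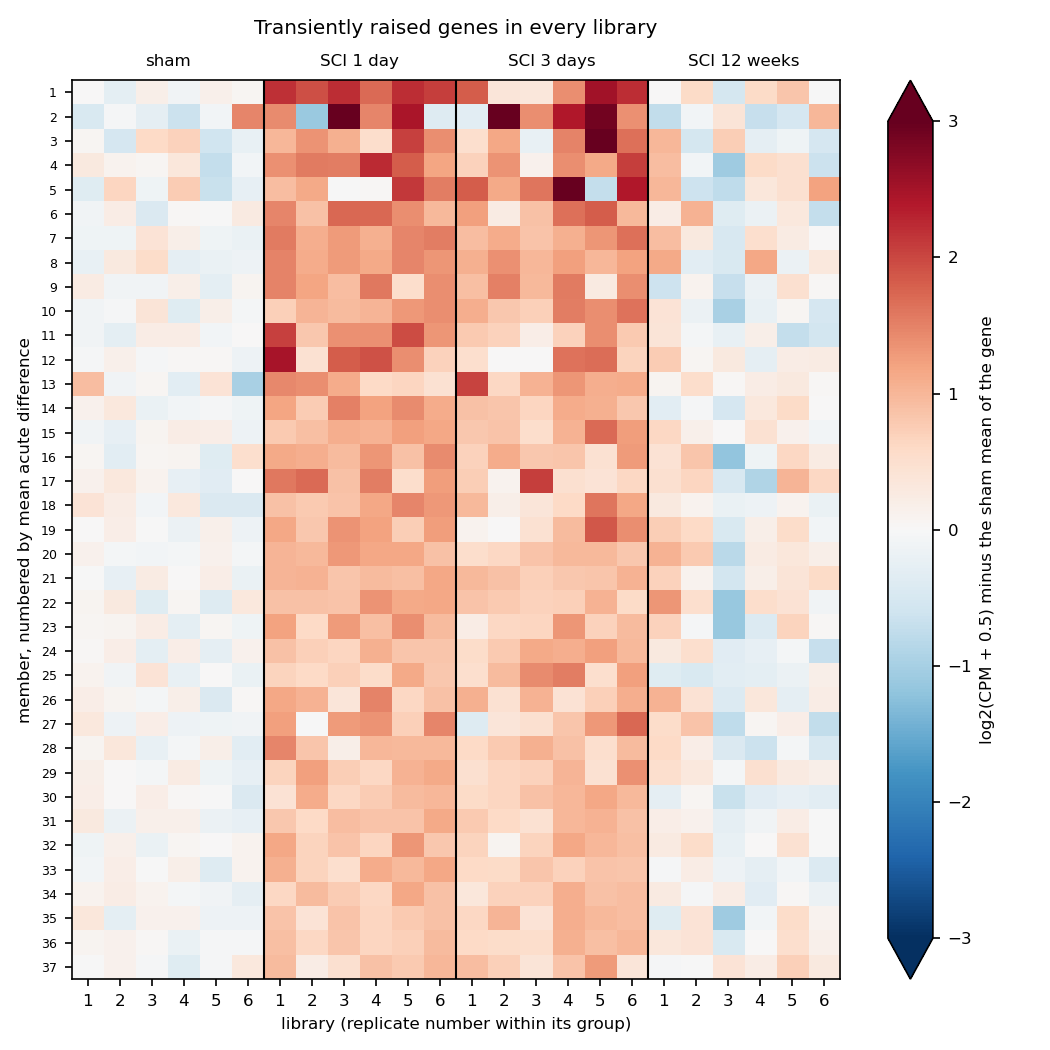
Rows are the 37 members, columns the 24 libraries by group, and the colour is log2(CPM + 0.5) minus the sham mean of the gene, with the scale limited at both ends. The acute columns are red for most members, 12 week replicate 3 is blue for many of them, and members 2, 3 and 5 vary most between the acute libraries.

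In 21 members every library of both acute groups was above every sham library. The share of all genes considered that did so at both times was not computed. At 1 day this held for 30 of the 37 members, where 8.25% of all genes considered did the same, and at 3 days for 23 members, where 3.68% did. The 12 week libraries overlapped more: every 1 day library was above every 12 week library in 21 members (5.95% of all genes considered), and every 3 day library in 11 (3.63%). The selection used these contrasts, so nothing is read from the differences between the shares. On this basis the members fall into 3 sets by how their libraries overlap.

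In the first set, 10 members (10, 14, 21, 24, 25, 30, 31, 33, 34 and 36), all 12 acute libraries lay above all 12 sham and 12 week libraries, as 0.372% of all genes considered did. Member 21, the gene with the smallest spread over the acute libraries, had 25.6, 30.3 and 35.8 CPM in sham (lowest, median and highest library). It had 54.0, 60.3 and 67.9 CPM at 1 day and 49.9, 55.1 and 62.4 CPM at 3 days. At 12 weeks its values were 20.4, 37 and 49.1 CPM, so that the highest late library came within 1 CPM of the lowest acute one. Member 14 had 13.5 to 19.5 CPM in sham, 26.5 to 44.8 CPM at 1 day, 24.6 to 34 CPM at 3 days and 10.7 to 23.3 CPM at 12 weeks. Member 25 had 26.5, 30.03 and 41.2 CPM in sham and 45.3, 50.1 and 68.6 CPM at 1 day. At 3 days it had 44.0, 66.6 and 91.0 CPM, and at 12 weeks 22.6, 24.9 and 34.8 CPM, a 12 week difference of -0.24 from sham. Member 30, nearest to the lower 12 week bound, had 26.8, 36.7 and 41.4 CPM in sham, 48.5, 65.8 and 78.7 CPM at 1 day and 54.03, 69.1 and 81.04 CPM at 3 days. At 12 weeks it had 22.6, 29.5 and 37.7 CPM, within or below the sham range. This set had a median mean acute difference of 0.86, and 5 of the 10 kept their membership when any single library was left out.

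In the second set, 11 members (1, 7, 8, 9, 15, 20, 22, 23, 26, 29 and 35), the acute libraries were all above sham but overlapped with some 12 week libraries. Of these 11 members, 8 had a value in 12 week replicate 1 above their lowest acute library. Replicates 2 and 5 did so in 4 members each and replicate 4 in 3, while replicates 3 and 6 did so in 0. The share of all genes considered with this kind of overlap was not computed. The median mean acute difference of this set was 0.94, and 2 of the 11 kept their membership without any single library.

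Members 1 and 2 had mean acute differences of 1.75 and 1.70, and their order was not stable. It turned with a pseudocount of 2 (1.12 and 1.43), and also without sham replicate 6 (1.76 and 2.00) or 1 day replicate 2 (1.76 and 1.96), among other single libraries. Member 1 had 0.614, 0.895 and 1.04 CPM in sham and 3.94, 5.52 and 5.86 CPM at 1 day. Its 3 day libraries split, with 2 at 1.23 and 1.27 CPM, just above the highest sham value, and the others between 3.09 and 7.34 CPM. At 12 weeks it had 0.451, 1.20 and 1.92 CPM. Member 8 was narrow in the acute groups, with 96.5, 110 and 125 CPM at 1 day and 88.3, 97.3 and 114 CPM at 3 days, against 36.6, 39.1 and 64.6 CPM in sham. At 12 weeks it split between 98.1 and 99.8 CPM in replicates 1 and 4 and 32.1 to 55.3 CPM in the others. Its 12 week mean, which counts as near sham, thus joins libraries at the acute level and libraries at the sham level.

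Member 20 had 40.6, 41.6 and 47.5 CPM in sham, 80.4, 92.2 and 107 CPM at 1 day and 62.5, 77.4 and 85.4 CPM at 3 days. At 12 weeks its libraries ran from 24.4 CPM in replicate 3 to 88.9 CPM in replicate 1, with a median of 52.9 CPM. Apart from replicate 3, they lay at 48.7 CPM or higher, above every sham library. Member 29 had the largest share of counts of all members, with a mean of 102 CPM over the 24 libraries. It had 58.0, 67.8 and 82.4 CPM in sham, 107, 129 and 164 CPM at 1 day, 95.5, 111 and 179 CPM at 3 days and 66.9, 84.8 and 98.9 CPM at 12 weeks. Members 8, 20 and 29 lost their membership without 12 week replicate 3, as did 12 of the 37 members in all.

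In the third set, the remaining 16 members, at least 1 acute library lay at or below the highest sham library. In 9 of them only the 1 day group was clear of sham, in 2 only the 3 day group, and in 5 neither. The matching shares of all genes considered were not computed, so nothing is read from these counts. The median mean acute difference of this set was 1.04, and 4 of the 16 kept their membership without any single library. Members 2, 3 and 5, with the largest spread over the acute libraries, belong here.

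Member 2 had 1.61 to 2.71 CPM in 5 sham libraries and 8.49 CPM in the sixth. At 1 day it ran from 1.02 CPM, below every sham library, to 77.9 CPM, with a median of 8.39 CPM. At 3 days it ran from 2.14 to 63.9 CPM with a median of 12.6 CPM, and at 12 weeks from 1.47 to 6.08 CPM. Only 3 of the 6 libraries at each acute time were above the highest sham library. Its SD on the log2 scale was 2.04 at 1 day and 1.57 at 3 days, which compares with acute differences of 1.40 and 2.01.

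Member 3 had 0.933, 1.56 and 3.01 CPM in sham, 2.63, 4.55 and 8.54 CPM at 1 day and 1.01, 1.40 and 3.87 CPM at 12 weeks. At 3 days a single library, replicate 5, reached 59.1 CPM, while the rest lay between 1.37 and 6.31 CPM. Member 5 had 10.96, 15.6 and 30.5 CPM in sham, 17.8, 37.2 and 79.2 CPM at 1 day and 10.7, 60.1 and 146 CPM at 3 days. The same 3 day replicate 5 that was highest for member 3 was the lowest for member 5, below every sham library.

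**Figure D4:**
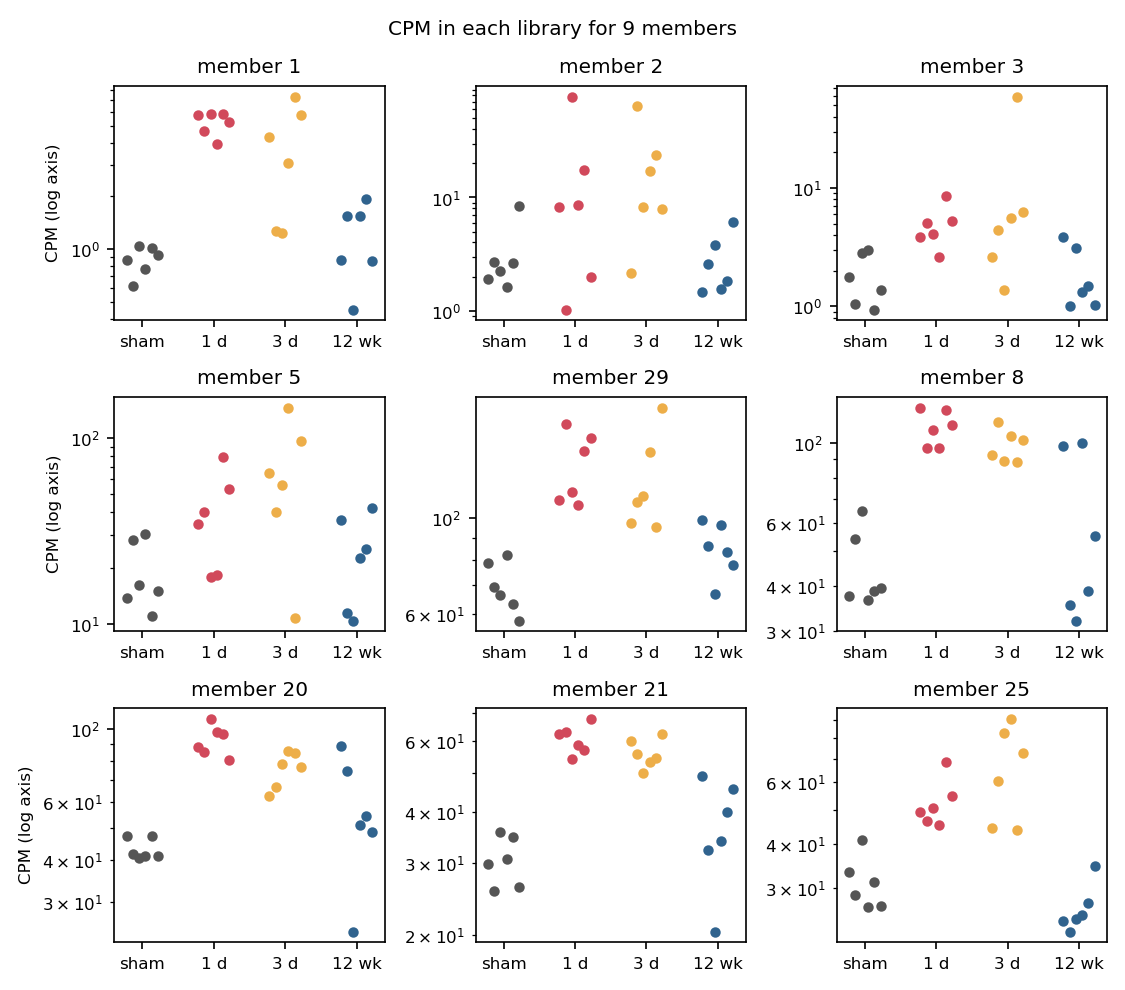
CPM on a log axis (y axis, with its own scale in each panel) in each of the 6 libraries per group (x axis) for 9 members. Members 21 and 25 separate the acute libraries from all others, members 8 and 20 have 12 week libraries at the acute level, and members 2, 3 and 5 have acute libraries within the sham range.

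The comparison of 3 days with 1 day sets the acute groups side by side. The selection sets no bound on this difference, but it required both means to lie well above the same sham mean. The values are therefore not independent of the selection, which tends to leave out genes that differ strongly between 1 and 3 days. P-values come from the fit over all genes, adjusted over the 15065 tested, and nothing is read from the members' count against that of all genes. No member was called at an adjusted p of 0.05 by edgeR's quasi-likelihood test, where 2.74% of all genes tested were called. At an unadjusted p under 0.05 there were 5 members, 3 of them lower and 2 higher at 3 days, and 17.7% of all genes tested. DESeq2 and limma-voom each called 1 member, in both cases member 11. Of the 37 members 27 had a lower mean log2(CPM + 0.5) at 3 days than at 1 day, where 53.8% of all genes considered did. So did 53 of the 89 raised genes that stayed higher at 12 weeks and 6 of the 13 that were lower. By edgeR's fold changes 25 members were lower at 3 days, with a median change of -0.14 against 0.01 over all genes tested. The 1 day and 3 day libraries come from different runs of library numbers, and the time and the run cannot be told apart.

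These tests leave room for sizeable differences in some members. The 95% interval of the log2 fold change lay within 1 on either side of 0 in 28 members and reached 1 or beyond in 9. Among the members with the narrowest intervals, member 31 differed by -0.04 (interval -0.27 to 0.18) and member 36 by 0.02 (interval -0.21 to 0.25). The interval of member 2, from -1.37 to 1.66, holds a large change in either direction.

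Member 11 came nearest to a call. It had 6.55, 7.90 and 9.50 CPM in sham, 14.5, 21.6 and 35.0 CPM at 1 day, 9.33, 13.8 and 22.1 CPM at 3 days and 4.73, 7.29 and 10.7 CPM at 12 weeks. The 1 and 3 day libraries overlapped. Its log2 fold change from 1 to 3 days was -0.74 (SE 0.214, edgeR adjusted p = 0.06). DESeq2 gave -0.74 (adjusted p = 0.0189), past the threshold. The limma-voom value of -0.78 also passed (adjusted p = 0.0277). It also passed with edgeR without 3 day replicate 5 (-0.90, adjusted p = 0.0171), 1 day replicate 2 (-0.85, adjusted p = 0.0341), 12 week replicate 3 (-0.74, adjusted p = 0.049) or 12 week replicate 5 (-0.74, adjusted p = 0.0467). Member 12 had a change of the same size, -0.74 (SE 0.316, edgeR adjusted p = 0.207), with 4.28 to 18.7 CPM at 1 day and 3.00 to 10.7 CPM at 3 days. Member 14 had -0.30 (SE 0.135, edgeR adjusted p = 0.23).

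On the other side stood member 25, at 0.33 (SE 0.143, edgeR adjusted p = 0.22), and member 3, at 1.43 (SE 0.632, edgeR adjusted p = 0.226). The value of member 3 rested on 3 day replicate 5, without which it was -0.28 (adjusted p = 0.756). With limma-voom it was 0.0068 (adjusted p = 0.997) and with the replicate number as a block in edgeR 0.77 (adjusted p = 0.582).

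**Figure D5:**
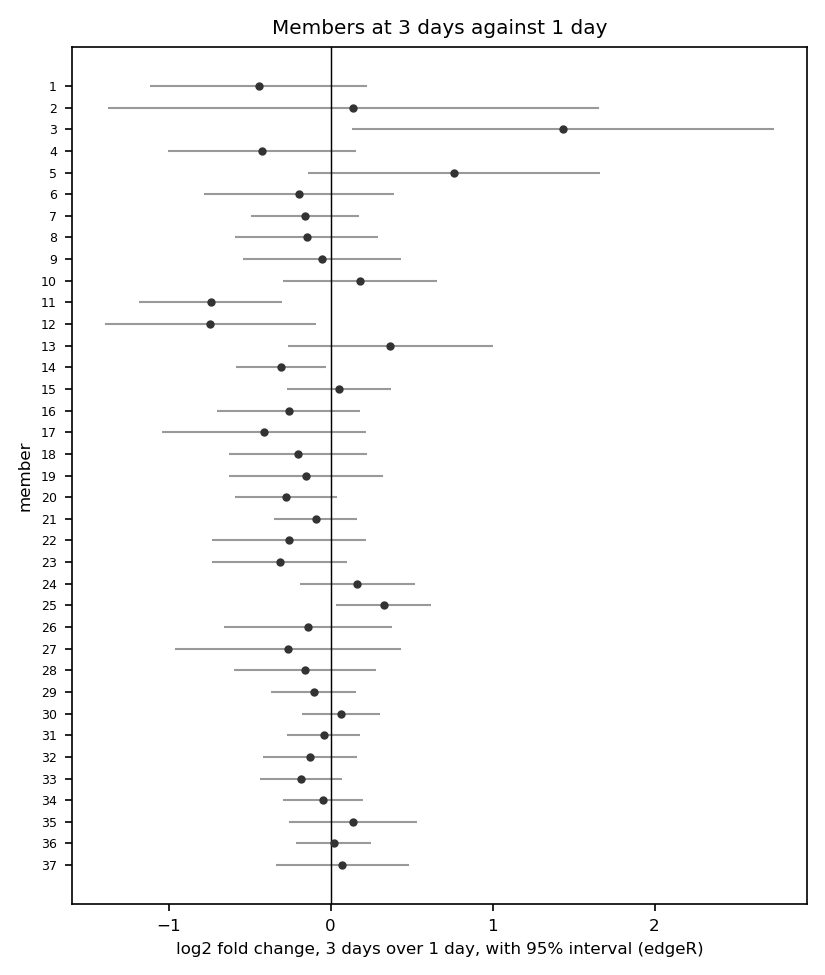
Points are the log2 fold changes of 3 days over 1 day for the 37 members (y axis, member 1 at the top) from edgeR, and lines their 95% intervals. Intervals of 28 members lie within -1 and 1, and those of members 2 and 3 are the widest.

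Membership itself depended on single libraries for many genes. When each of the 24 libraries was left out in turn, 30 to 44 genes met the bounds, of which 25 to 36 were among the 37. A total of 11 members met them every time. Leaving out a 1 day library cost few members, as 34 of the 37 met the bounds without any of the 6. Without any of the 12 week libraries in turn 19 members did so, without any of the sham libraries 21 and without any of the 3 day libraries 26. Member 10, with a mean of 2.00 CPM, fell under the CPM minimum or outside another bound in 14 of the 24 cases.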

How the data were processed

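RNA was extracted from frozen left ventricle, depleted of ribosomal RNA, made into strand-specific libraries and sequenced as paired ends, per the labels' protocols. The authors deposited raw counts per gene ID, named as protein-coding, for 24 libraries, 6 per group. FastQC 0.12.1, STAR 2.7.11a, featureCounts 2.0.6 and the build mRatBN7.2 are named in the submitters' processing notes. For the annotation release, strand setting and handling of multi-mapping reads, nothing is given in the sources used here, so overlapping genes and near-identical copies may share reads. The table has 26166 lines for 23098 IDs. A total of 781 IDs, 1 member among them, stand on several lines with identical counts, and each ID was used once. The rule leaves out 1 gene ID.

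The members and lists were chosen with earlier results of these data known. CPM values were computed from each library's total, and no TMM factor entered them. The 3 day and 1 day groups were compared in R 4.3.3 with edgeR 4.0.16 (filterByExpr, TMM, quasi-likelihood F test, two-sided, 15065 genes, 1 term per group over all 24 libraries, Benjamini-Hochberg). DESeq2 1.42.0 and limma 3.58.1 were alternatives, with no filter on low counts, a replicate block, only the 2 groups, and each library left out in turn. For the membership, other library sizes, pseudocounts, CPM minimums and medians were tried. The fit was tested on simulated data with known changes. It recovered 57.5% of 1.5-fold, 80% of 2-fold and 97.5% of 4-fold changes, and 7 of its 156 calls were false. Within groups, library pairs differed by a chi-square per degree of freedom of 12.6 or more, so none was counted as a repeat. This covers counting error only and does not show that the libraries came from separate rats. Gene lists, cell type markers and promoter motifs had been planned, but all need gene symbols. No ID matched the gene table (assembly GRCr8), whose Ensembl column is empty, so none was run and no sequence is printed. The rule for named genes takes members with a symbol, and none had one, so the genes correlated with them are not given. Members described singly were taken from those with the largest rise, the largest and smallest acute spread, the highest mean CPM or a value next to a bound. Members 11, 12 and 14 (unadjusted p under 0.05) and 36 (narrow interval) were chosen after their values were seen. At most 2 IDs are printed. Same-numbered libraries of the 1 and 3 day groups correlated between -0.122 and 0.177, above 0.1 in 1 of 6 pairs, so the numbers were not taken as pairs.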

Additional observations from a re-analysis of the deposited data

Results flagged for a closer look

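Among 60 sets of 6 libraries checked for a value far from the rest, 5 held one. Chance alone flags about 1 in 20 such sets, but members 2 and 3 were described because of their spread, so the number of flags cannot be read against that rate. Of these, 3 concern ENSRNOG00000014409 (member 2): sham replicate 6 with 8.49 CPM, 1 day replicate 3 with 77.9 CPM and 3 day replicate 2 with 63.9 CPM each stood apart above the rest of their group. In member 3, 3 day replicate 5 stood apart with 59.1 CPM. In the mean over the 37 members, 1 day replicate 2 stood apart below its group, at 0.86 against 1.09 to 1.20 in the others.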

How the results depend on the processing

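For 3 days against 1 day, edgeR called 413 genes and 0 members. DESeq2 called 811 genes and 1 member, limma-voom 539 and 1, and the fit of only the 2 groups 259 and 0. With the replicate block the counts were 298 and 0, and the block changed no call of a member. Leaving out single libraries gave 170 to 653 genes and 0 to 1 members. The gene count moved by over 1.5 times without 1 day replicate 1 (239), 4 (254) or 5 (170), 3 day replicate 2 (259), 4 (185) or 6 (275), and 12 week replicate 3 (653). The cause was not tested. The log2 change of member 3 was 1.43, and -0.28 to 1.67 without single libraries, negative only without 3 day replicate 5. It was 0.0068 with limma-voom and 0.77 with the replicate block.

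The membership held 37 genes with TMM library sizes (35 shared with the original 37), 44 with a pseudocount of 0.1 (34 shared), 25 with a pseudocount of 2 (20 shared) and 34 with group medians (27 shared). It held 47 with a CPM minimum of 1 and 26 with one of 5, and 30 to 44 without single libraries. Without the 2 shallowest libraries, an alternative chosen after seeing the data, it held 37 genes, 28 of them shared. The mean acute difference of ENSRNOG00000013003 fell from 1.75 to 1.12 with a pseudocount of 2. The planned counts over gene lists were not run.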
